A study of Rattus norvegicus with 87 samples.

Results

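Nicotinic acetylcholine receptors are ion channels built from 5 subunits around a central pore, and they open when acetylcholine or nicotine binds. The genes described here are the 3 subunit genes of the deposited table that are expressed widely in the brain, out of 17512 genes in all: Chrna4 (ENSRNOG00000011202), Chrnb2 (ENSRNOG00000020778) and Chrna7 (ENSRNOG00000010853). They were chosen by identifier, by a rule that uses no measured value. Chrna4 encodes the α4 subunit and Chrnb2 the β2 subunit, which assemble together into the receptor that binds nicotine with high affinity. Chrna7 encodes the α7 subunit, which can form a channel by itself, passes calcium readily and desensitises fast.

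Polyadenylated RNA of the lateral habenula (LHb) was sequenced. The LHb is a nucleus of the epithalamus that sends glutamatergic axons toward midbrain monoamine centres. The medial habenula (MHb), its immediate neighbour, holds cholinergic neurons and is known for dense expression of another nicotinic subunit, β4, encoded by Chrnb4. The animals were Heterogeneous Stock (HS) rats, an outbred population, and no rat had been given a drug or a behavioural test. The 81 rats in the table were 41 males and 40 females, and the labels give no age or genotype group. The nucleus had been picked by hand out of cryosections, with left and right joined, so each library is 1 rat. In such tissue, fewer cells of a type and less RNA per cell cannot be told apart.

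The labels place the rats in 5 rat batches. Males numbered 11, 10, 12 and 8 in batches 2, 3, 4 and 6 and females 4, 12, 15 and 8, which gives 80 rats for the fits. Batch 5 held 1 female, whose values are described and enter no test. The columns of the table also stand in 3 consecutive runs, each in alphabetical order of the rat identifiers. A new run was read from where that order starts again. Where a label notes an exchange of identifiers, the original identifier was used for this. Batch 2 lies in run 1 and batches 4, 5 and 6 lie in run 3, whereas batch 3 has 7 rats in run 1, 12 in run 2 and 3 in run 3. What the runs are is not stated in the labels, and they served only as a technical split. Depth before scaling could be recovered for 65 of the 81 libraries and was 18.3 ± 3.89 M estimated reads (SD, n = 65), from 5.73 to 30.5 M, with M for megareads. In these libraries Chrna4 had 368 to 2610 reads, with a median of 1399. Chrnb2 had 343 to 1742 reads with a median of 1078, and Chrna7 had 38 to 273 with a median of 161. Counting error therefore weighs most on Chrna7. The named LHb and neuronal markers, Pcdh10, Slc17a6 and Stmn2, were above 0 in every rat, and so was Chat, a marker of the MHb. All named hippocampal, microglial and astrocyte markers were also above 0 in every rat. The same held for 14130 of the 17512 genes.

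The sequences before the starts of the 3 genes are shown because their transcripts are compared with each other below. They come from RefSeq on build GRCr8, a later build than the Rnor_6.0 annotation behind the counts, and are read 5′ to 3′ on the strand of the gene. Each holds 250 bases, and all 3 genes lie on the minus strand. Capitals mark the GC box, GGGCGG or its reverse complement CCGCCC, which is known to be bound by Sp1-type factors.

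Chrna4, chr3:188534527-188534776: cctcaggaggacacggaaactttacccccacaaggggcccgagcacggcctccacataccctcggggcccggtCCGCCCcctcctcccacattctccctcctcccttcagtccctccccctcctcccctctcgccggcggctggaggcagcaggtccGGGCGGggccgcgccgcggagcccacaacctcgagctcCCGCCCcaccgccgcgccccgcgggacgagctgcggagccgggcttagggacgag
Chrnb2, chr2:177487307-177487556: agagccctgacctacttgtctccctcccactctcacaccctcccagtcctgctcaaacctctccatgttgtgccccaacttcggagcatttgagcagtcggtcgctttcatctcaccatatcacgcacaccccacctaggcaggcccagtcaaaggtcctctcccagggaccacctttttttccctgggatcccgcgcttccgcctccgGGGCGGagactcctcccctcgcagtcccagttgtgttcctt
Chrna7, chr1:126249130-126249379: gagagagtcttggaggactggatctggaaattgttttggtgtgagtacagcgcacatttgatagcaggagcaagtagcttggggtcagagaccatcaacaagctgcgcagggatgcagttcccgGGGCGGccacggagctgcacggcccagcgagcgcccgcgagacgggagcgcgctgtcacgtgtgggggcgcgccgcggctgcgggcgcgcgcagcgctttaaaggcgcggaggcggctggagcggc

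The Chrna4 window held 3 GC boxes, and those of Chrnb2 and Chrna7 held 1 each. Among all 33469 promoter windows of the same length, 30.5% held at least 1 GC box and 7.41% held at least 3. The Chrna4 window was 74.4% G and C, more than 96.1% of all windows, and the Chrna7 window was 66.0% G and C with 27 CpG dinucleotides, more CpG than 92.3% of windows. Chrnb2 had 59.6% G and C and 10 CpG, against medians of 51.2% and 5.0 over all windows. A TATA box (TATAAA) was found in none of the 3 on either strand, where 12.9% of all windows held it. The CCAAT box, spelled as it is named and held by 34% of windows, was also absent from these letters. So was the cAMP response element, TGACGTCA, which 1.59% of windows held. These are matches of letters only.

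Every rat expressed all 3 genes, and none was listed at 0 in any library, which held for 14130 of the 17512 genes. Chrna4 ranged from 806 to 2422 normalized counts over the 81 rats, with a median of 1311, or 10.38 ± 0.28 on the log2 scale (SD, n = 81). A normalized count is the estimated read count after the study's scaling to a common upper quartile, and the log2 scale is log2(normalized count + 1). Chrnb2 ranged from 508 to 1422 with a median of 973, or 9.93 ± 0.24. Chrna7 ranged from 40 to 226 with a median of 134, or 7.06 ± 0.46, so its highest rat was 5.65 times its lowest, against 3.0 times for Chrna4 and 2.8 times for Chrnb2. Transcript length was not used here, so levels are not compared between the genes.

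The rats at the ends of these ranges were only partly the same from gene to gene. Chrna4 was highest in male rats 22 and 39 of batch 2 (2422 and 2274) and in male rat 14 of batch 3 (2027), which also had the highest Chrnb2 value of all rats. It was lowest in male rat 33 and female rats 2 and 32 of batch 4, at 806, 912 and 933. Chrnb2 had 2 low rats, male rat 19 of batch 2 at 508 and male rat 36 of batch 3 at 544, and the next rat stood at 713. For Chrna7 the 3 lowest rats, male rat 10 at 40, female rat 9 at 52 and male rat 36 at 62, and the highest rat, female rat 12 at 226, all belonged to the 12 rats of batch 3 in run 2. Male rat 10 and female rat 12 also had 1491 and 1661 genes at 0, against a median of 540 over all rats. The part of this in their Chrna7 values was not tested.

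Males and females had overlapping values for all 3 genes. Chrna4 ranged from 806 to 2422 with a median of 1276 in males, and from 912 to 1818 with a median of 1346.5 in females. For Chrnb2 the ranges were 508 to 1422 (median 978) and 727 to 1257 (median 969.5), and for Chrna7 they were 40 to 204 (median 137) and 52 to 226 (median 133). With limma and adjustment for rat batch, the difference of males minus females was -0.02 (SE 0.0632) for Chrna4, -0.02 (SE 0.0553) for Chrnb2 and -0.03 (SE 0.0924) for Chrna7 on the log2 scale. The adjusted p was 0.998 for each, so 0 of the 3 genes passed, and 0.131% of all genes did. At an unadjusted p under 0.05 the count was also 0 of 3, with 5.04% of all genes below it. The sex difference did not vary detectably with batch for any of the 3 (adjusted p of 1 each), and 0 of 17512 genes passed that test, with 306 at an unadjusted p under 0.05.

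**Figure D1:**
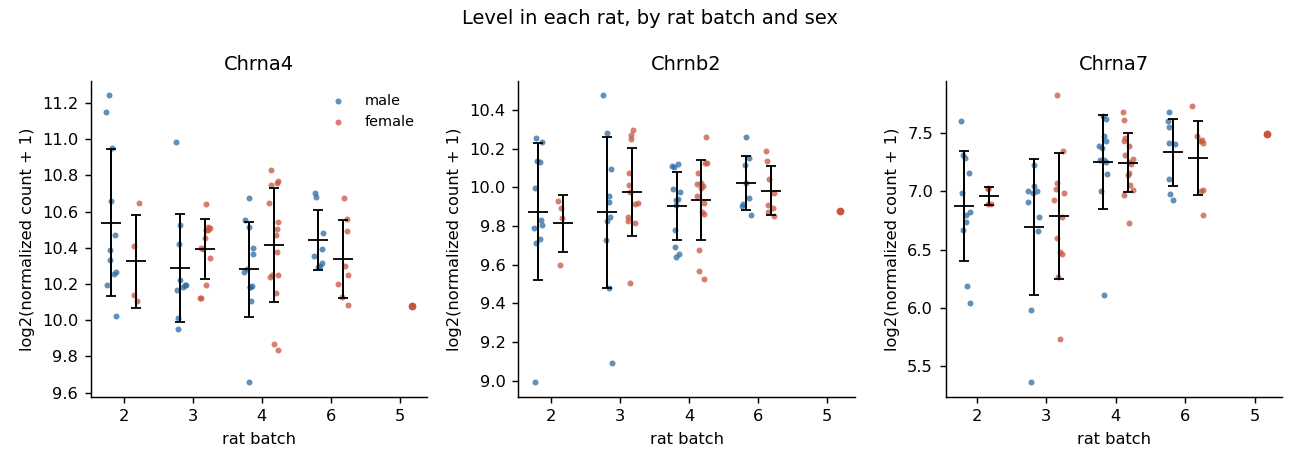
Each point is 1 rat, placed by rat batch and sex, with its log2(normalized count + 1) on the vertical axis, and bars give the mean and SD of each sex in each batch. The sexes overlap in every batch, and the Chrna7 values of batches 4 and 6 sit mostly above those of batches 2 and 3.

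Chrna7 differed between rat batches, and Chrna4 and Chrnb2 did not pass the same test. Chrna7 had a median of 118 normalized counts in batch 2 (log2 values from 6.04 to 7.61, n = 15) and 120 in batch 3 (log2 values from 5.36 to 7.83, n = 22). It had a median of 153 in batch 4 (log2 values from 6.11 to 7.68, n = 27) and 170 in batch 6 (log2 values from 6.79 to 7.73, n = 16), and the rat of batch 5 stood at a log2 value of 7.49. The groups overlapped at both ends, but 33 of the 37 rats of batches 2 and 3 were below the median of batches 4 and 6, and 3 of the 43 rats of batches 4 and 6 were below the median of the others. The difference from the highest to the lowest fitted batch was 0.57 on the log2 scale, with an adjusted p of 8.22e-05 in limma. Chrna7 was 1 of 3 subunit genes called, where 65.3% of all genes were called, so a call was the common outcome in this table.

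The fitted ranges of Chrna4 and Chrnb2 over batches were smaller. Chrna4 medians were 1338, 1321.5, 1320 and 1293.5 normalized counts in batches 2, 3, 4 and 6, a fitted range of 0.14 (adjusted p = 0.487). Chrnb2 medians were 915, 968.5, 992 and 994.5 in the same order, again a fitted range of 0.14 (adjusted p = 0.522). Batch 2 nevertheless held the widest Chrna4 spread, with a residual SD of 0.38 on the log2 scale against 0.2 in batch 6. For Chrnb2 the residual SD was 0.31 in batches 2 and 3 and 0.13 in batch 6.

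Pairs of batches placed the Chrna7 difference between batches 2 and 3 on the low side and batches 4 and 6 on the high side. Batch 4 minus batch 3 was 0.50 (SE 0.116, adjusted p = 0.000168), and 28.6% of all genes were higher by the same limma test. Batch 6 minus batch 3 was 0.57 (SE 0.133, adjusted p = 0.000165, 31.8% of genes higher). Against batch 2, batch 4 was higher by 0.34 (SE 0.133, adjusted p = 0.0371, 16.1% of genes higher) and batch 6 by 0.41 (SE 0.147, adjusted p = 0.0192, 20.6% of genes higher). All 4 calls were lost with column run in the fit (adjusted p from 0.0673 for batch 6 minus batch 3 to 0.162 for batch 4 minus batch 2) and with 20 expression components (adjusted p from 0.657 to 0.839). The difference between batches 4 and 2 also lost its call when batch 6 was left out (0.34, adjusted p = 0.0594). Batch 3 minus batch 2 (-0.16, adjusted p = 0.497) and batch 6 minus batch 4 (0.06, adjusted p = 0.786) did not pass.

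The batch and the column run overlap in this table, so each was also examined within the other. Within run 1, batch 3 minus batch 2 called 0 of all genes in limma. Within run 3, batch 6 minus batch 4 called none of the 3, with 5.83% of all genes higher and 4.16% lower. The direct comparison of batches inside a run rests on the 3 rats of batch 3 in run 3, which had Chrna7 log2 values of 6.6, 6.66 and 7.0. These were all below the median of 7.31 in the 43 rats of batches 4 and 6 of the same run (6.11 to 7.73). The difference was 0.53 (SE 0.185, adjusted p = 0.0272 in limma), and 17.5% of genes were higher. These 3 libraries had 1404, 1578 and 1550 genes at 0, and 2 of them had the low totals of 10.4 and 5.73 M reads. The part of this in the difference was not tested. With the 9 libraries that had over 1000 genes at 0 left out, the Chrna7 batch range was 0.57 (adjusted p = 7.44e-05). That fit also left out these 3 rats, so it cannot bear on the difference inside run 3. When column run was added to the fit, the Chrna7 range was 0.66 with an adjusted p of 0.26, and for Chrnb2 it was 0.38 with an adjusted p of 0.0439. The batch and the run therefore cannot be told apart for most rats.

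**Figure D2:**
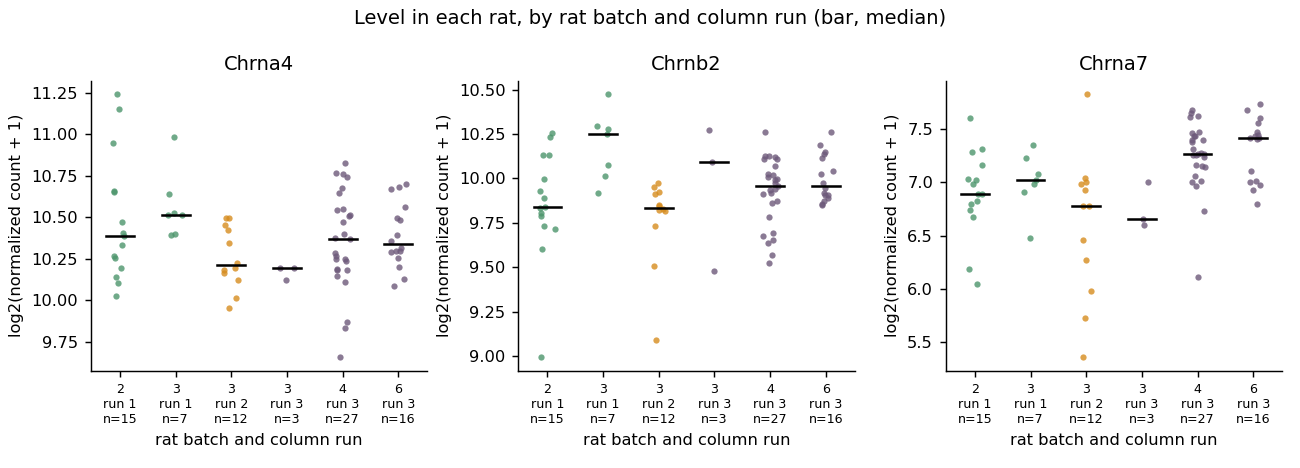
Each point is 1 rat, placed by rat batch and column run, with its log2(normalized count + 1) on the vertical axis and the median as a bar. The 3 rats of batch 3 in run 3 lie low for Chrna7 (log2 values of 6.6 to 7.0). Within batch 3 the run 1 median lies above the run 2 median for Chrna4 and Chrnb2, with overlapping values.

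Within batch 3, Chrna4 and Chrnb2 were lower in run 2 than in run 1. Chrna4 had a median of 1462 in the 7 rats of run 1 (1343 to 2027) and 1184.5 in the 12 rats of run 2 (989 to 1445). Chrnb2 had medians of 1218 (966 to 1422) and 913 (544 to 1005), and for both genes the ranges overlapped. Run 2 was lower than run 1 by 0.30 for Chrna4 (SE 0.0901, adjusted p = 0.0232) and by 0.42 for Chrnb2 (SE 0.107, adjusted p = 0.0114) in limma, where 11.3% of all genes were lower. Some markers of cell types moved in the same comparison: Slc17a6 was lower by 0.25 (adjusted p = 0.00844), while Stmn2 was higher by 0.26 (adjusted p = 0.00527), C1qa by 0.42 (adjusted p = 0.0169) and C1qc by 0.32 (adjusted p = 0.0387), where 11.7% of all genes were higher. P2ry12 (-0.26, adjusted p = 0.169), Pcdh10 (-0.26, adjusted p = 0.0976) and Chrnb4 (0.07, adjusted p = 0.791) did not pass. Their part in the lower Chrna4 and Chrnb2 was not tested.

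Chrna7 in the same rats had medians of 129 (88 to 162) and 109 (40 to 226). Its difference of -0.40 had an SE of 0.261 and did not pass (adjusted p = 0.277). Its residual SD was 0.67 in run 2, against 0.38 in run 1 and 0.3 in run 3. These fits within runs and batches were added after the data were examined.

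Across batches, Chrna7 moved apart from both genes of the shared receptor. The log2 difference of Chrna4 minus Chrna7 within a rat averaged 3.58, 3.6, 3.11 and 3.08 in batches 2, 3, 4 and 6. Batch explained 27.6% of its variance (permutation test of batch labels within sex, adjusted p = 6e-05 over 6 tests). For Chrnb2 minus Chrna7 batch explained 21.6% (permutation test, adjusted p = 0.0011), and without batch 3 it explained 10.04% with an unadjusted permutation p of 0.062. For Chrna4 minus Chrnb2 it explained 9.29%, which did not pass (permutation test, adjusted p = 0.13), and 11.6% without batch 3 (permutation p = 0.0356, unadjusted). These differences compare changes, not levels, since each gene has its own length. Sex explained under 1% of each difference (permutation test, adjusted p = 0.99 for each).

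Several other named genes also differed between the batches, where 65.3% of all genes were called. Chrnb4 had medians of 1685, 1348.5, 2037 and 2281.5 normalized counts in batches 2, 3, 4 and 6, with a fitted range of 0.76 (adjusted p = 1.76e-05 in limma). Ric3, which encodes a chaperone for α7 assembly, had medians of 920, 917.5, 1091 and 1201 (adjusted p = 1.77e-10). C1qa, a complement gene of microglia, went the other way, with medians of 1156, 1255, 853 and 693.5 (adjusted p = 5.44e-11). C1qc did likewise (fitted range 0.75, adjusted p = 1.02e-09), but P2ry12, the other named microglial gene, had medians of 160, 158.5, 167 and 153.5 and did not pass (adjusted p = 0.0866), and for it batch 4 was higher than batch 2 by 0.27 (adjusted p = 0.0432). Stmn2 also went the other way from Chrna7, with batch 6 minus batch 3 at -0.28 (adjusted p = 5.79e-09 in limma). Slc17a6 (adjusted p = 0.712), the astrocyte gene Aldh1l1 (adjusted p = 0.445) and the hippocampal gene C1ql2 (adjusted p = 0.239) did not pass the batch test. The part of these genes in the Chrna7 difference was not tested.

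Among rats of the same sex and batch, Chrna4 and Chrnb2 varied together. Over the residuals of 80 rats Pearson's r was 0.52 and Spearman's rho 0.51 (permutation p of 1e-05 each, the smallest these permutations can give, adjusted p = 3e-05 over 6 values). Without the 2 rats farthest from the median r was 0.47. Within batches 2, 3, 4 and 6 it was 0.79, 0.54, 0.34 and 0.22, and within runs 1, 2 and 3 it was 0.82, 0.18 and 0.26. The relation was therefore strongest in the rats of batch 2 and run 1, and the difference between batches was not tested.

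Chrna7 followed the others less closely. Chrna4 and Chrna7 had an r of 0.34 and a rho of 0.30 (permutation test, adjusted p = 0.0043 and 0.0091), with r at 0.34 without the 2 farthest rats. Within the 4 batches r was 0.51, 0.30, 0.44 and -0.02. Chrnb2 and Chrna7 had an r of 0.21, which did not pass (permutation test, adjusted p = 0.095), and a rho of 0.30, which did (adjusted p = 0.0091). Without the 2 farthest rats r fell to 0.14, and within batches it was 0.48, 0.25, -0.08 and 0.06, so r was positive in batches 2 and 3 and near 0 in batches 4 and 6. The authors used 20 expression components, with similarity to founder strains, as covariates in their genetic mapping of expression. Here 20 components were computed anew from the log2 values of the 80 rats. Removal of these new components left r at 0.25 for Chrna4 and Chrnb2 (permutation p = 0.039). It turned r to -0.18 for Chrna4 and Chrna7 (p = 0.12 by permutation) and to -0.42 for Chrnb2 and Chrna7 (permutation p = 0.00024). Both r values with Chrna7 thus changed sign when broad components of expression were removed, but the -0.18 did not pass. These permutations made no allowance for the fit of the components, so their p-values may be too small.

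**Figure D3:**
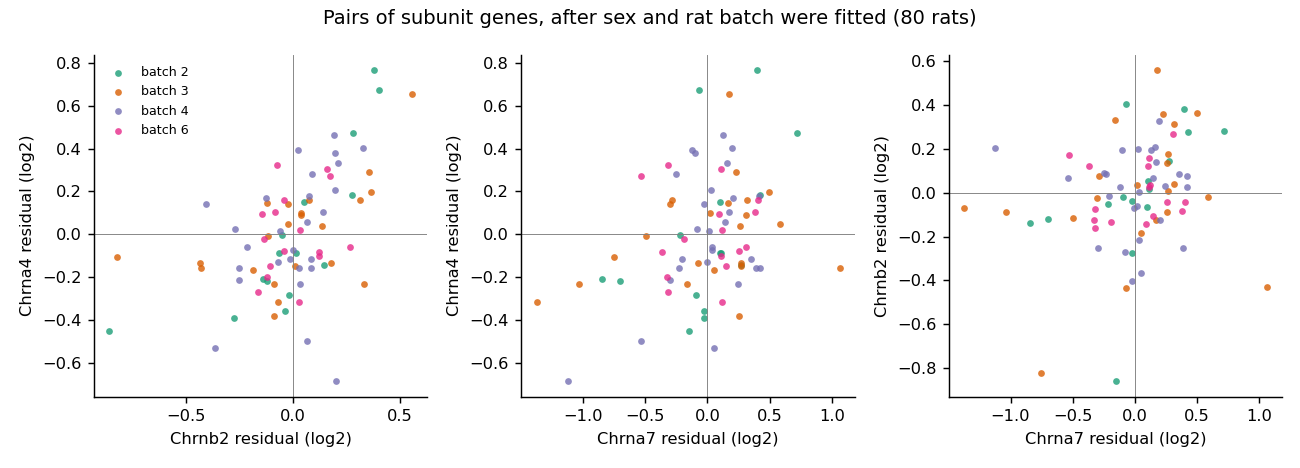
Each point is 1 of 80 rats, coloured by rat batch, and the axes give the log2 residual of each gene after sex and rat batch were fitted. Chrna4 and Chrnb2 rise together (r = 0.52), and the Chrna7 panels are more scattered (r = 0.34 and 0.21).

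The other nicotinic, partner and cholinergic genes could be examined only where the table's identifiers could be paired with a symbol. That held for 1 of 13 other nicotinic genes (Chrnb4), for 2 of 10 partner genes (Ric3 and Lypd6) and for 3 of 10 cholinergic genes (Chat, Chrm1 and Chrm5). Each served, with 11 markers of cell types, as the explanatory gene of a limma fit with sex and rat batch, and the slope is the log2 change of a subunit gene per SD of the explanatory gene. Both axes of such a fit come from the same libraries, which share their depth and dissection. The slope is not scaled to the spread of the subunit gene, so differences between slopes mix closeness of relation with spread. The residual SD was 0.282 for Chrna4, 0.246 for Chrnb2 and 0.409 for Chrna7. These single-gene fits were chosen after the data were examined.

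Chrna4 rose with Chrnb4, the β4 gene of the MHb. Chrnb4 itself ranged from 684 to 3364 normalized counts over the 81 rats, with a median of 1685. The Chrna4 slope was 0.20 (SE 0.0292, adjusted p = 7.16e-08), where 16.6% of all genes rose. Chrnb2 had a slope of 0.05 (SE 0.0318, adjusted p = 0.197) and Chrna7 one of 0.12 (SE 0.0523, adjusted p = 0.0584), and neither passed. Chrnb2 passed without batch 3 (0.076, adjusted p = 0.0367), and Chrna7 passed with column run in the fit (0.13, adjusted p = 0.0368) and without batch 2 (0.157, adjusted p = 0.0457). Within batch 4 alone Chrna7 also passed in limma (0.19, SE 0.056, adjusted p = 0.0104). The Chrna4 slope exceeded that of Chrnb2 by 0.15 (permutation test of the difference, adjusted p = 0.0003 over 15 differences), whereas Chrna4 and Chrna7 did not differ detectably (permutation test, adjusted p = 0.16).

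Over the residuals, Chrna4 and Chrnb4 had an r of 0.62 and a rho of 0.61 (permutation test, adjusted p = 2.7e-05 each over 8 values), and r was 0.55 without the 2 farthest rats. Chrnb4 was thereby number 115 of 13359 genes in its likeness to Chrna4. Within batches 2, 3, 4 and 6 r was 0.43, 0.21, 0.90 and 0.78. In batch 4, male rat 33 and female rat 32 had low residuals in Chrna4 (-0.69 and -0.50) and in Chrnb4 (-1.49 and -1.03). Their Chat residuals were -2.33 and -0.85. The r of batch 4 without these rats was not computed. The Chrna4 slope in limma was 0.27 within batch 4 (adjusted p = 3.27e-08) and 0.21 within batch 6 (adjusted p = 0.0472). In batch 3 it was 0.08 (adjusted p = 0.852) and in batch 2 it was 0.15 (adjusted p = 0.265). The share of all genes called was not counted for fits within a single batch. A test of whether the slope differed between batches did not pass (limma interaction, unadjusted p = 0.086, adjusted p = 0.918).

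Chat, which encodes the enzyme that makes acetylcholine, gave slopes in the same order. Chrna4 rose by 0.17 per SD of Chat (SE 0.0281, adjusted p = 3.41e-06) and Chrna7 by 0.14 (SE 0.0471, adjusted p = 0.0215), where 15.2% of genes rose. Chrnb2 had a slope of 0.06 that did not pass (adjusted p = 0.136), and it was below the Chrna4 slope by permutation test (difference 0.11, adjusted p = 0.0027). The Chrnb2 slope passed with column run in the fit (0.069, adjusted p = 0.0342), without batch 3 (0.082, adjusted p = 0.0126) and within batch 2 alone (0.22, adjusted p = 0.03). For the fit within batch 2 the share of all genes called was not counted. Without batch 4 neither call held (adjusted p = 0.089 for Chrna4 and 0.471 for Chrna7 in limma), and the Chrna7 call was also lost without male rats 10 and 33, its 2 lowest after sex and batch (slope 0.066, adjusted p = 0.409). Within batch 3 the r of Chrna4 and Chat was -0.03. Of the muscarinic receptor genes, Chrm5 went with Chrna7 (slope 0.18, SE 0.0523, adjusted p = 0.0123, where 9.95% of genes rose). That call was lost without batch 2 (adjusted p = 0.125) and without batch 4 (adjusted p = 0.199). Chrm1 went with none of the 3, where 0.274% of all genes rose and 0% fell.

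**Figure D4:**
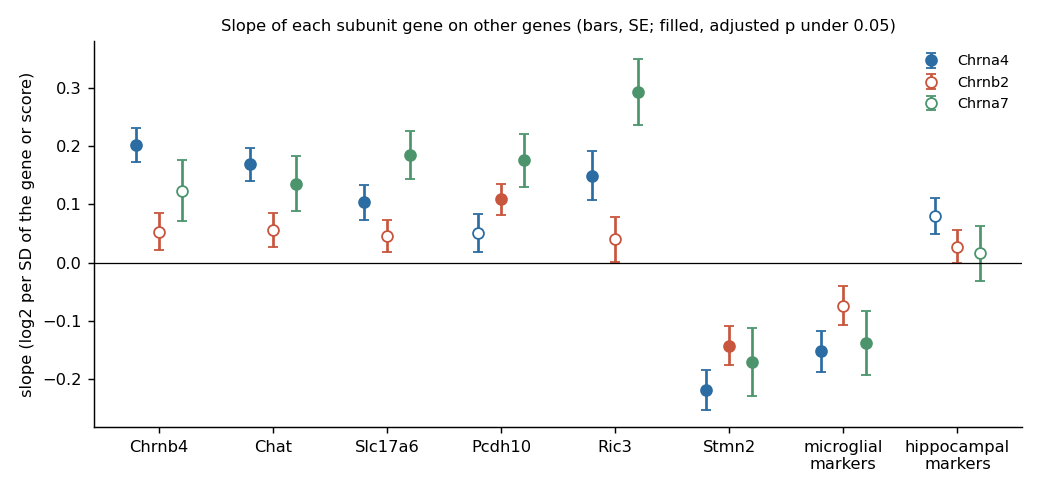
Points give the slope of each subunit gene, in log2 units per SD of the gene or marker score on the horizontal axis, with the SE as bars, and filled points passed an adjusted p of 0.05 in limma. Chrna4 is highest on Chrnb4 (0.20), Chrna7 is highest on Ric3 (0.29), and all 3 genes lie below 0 on Stmn2.

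Ric3, the chaperone gene, had its steepest relation with Chrna7. The slope was 0.29 (SE 0.0569, adjusted p = 1.11e-05), where 25.3% of genes rose. Chrna4 also rose with Ric3, by 0.15 (SE 0.0416, adjusted p = 0.00179), and Chrnb2 had a slope of 0.04 that did not pass (adjusted p = 0.415). The Chrna7 slope exceeded that of Chrnb2 by 0.25 (permutation test, adjusted p = 0.0027), and its excess over Chrna4 did not pass (adjusted p = 0.075 by permutation). Chrna7 and Ric3 had an r of 0.51 and a rho of 0.38 (permutation test, adjusted p = 3.2e-05 and 0.00086), and r was 0.44 without the 2 farthest rats. Within batches 2, 3, 4 and 6 r was 0.51, 0.65, 0.47 and 0.11. The other partner gene, Lypd6, which encodes a membrane-tethered relative of snake toxins, gave no call for any of the 3, where 0.6% of all genes rose and 0.0742% fell. Its lowest unadjusted p was that of Chrnb2 (0.00282).

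Pcdh10, a protocadherin gene that marks the LHb, was followed by Chrnb2 (slope 0.11, SE 0.0267, adjusted p = 0.000881) and Chrna7 (0.18, SE 0.0451, adjusted p = 0.00148), where 17.1% of genes rose. Chrna4 had a slope of 0.05 that did not pass (adjusted p = 0.249), and it was below that of Chrna7 (permutation test, difference -0.12, adjusted p = 0.039). Chrna4 and Chrnb2 did not differ detectably in their slopes (permutation test, adjusted p = 0.098). The Chrnb2 relation had an r of 0.42 and a rho of 0.31 (permutation test, adjusted p = 0.00075 and 0.0077) and depended on male rats 19 and 36, the 2 lowest in Chrnb2. Without them its slope was 0.05 (adjusted p = 0.127) and its r was 0.25. The call was also lost without batch 3 (0.093, adjusted p = 0.056). Within batches 2, 3, 4 and 6 its r was 0.66, 0.49, -0.14 and 0.64. The Chrna7 slope was 0.13 without batch 3 and no longer passed (adjusted p = 0.122).

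Slc17a6, the vesicular glutamate transporter gene of LHb neurons, was followed by Chrna7 (slope 0.19, SE 0.0412, adjusted p = 0.000317) and Chrna4 (0.10, SE 0.0294, adjusted p = 0.00406), where 17.7% of genes rose. The Chrna4 call was lost without batch 3 (adjusted p = 0.0879). Chrnb2 had a slope of 0.05 (adjusted p = 0.19), which passed with the 9 libraries of over 1000 genes at 0 left out (0.07, adjusted p = 0.0324).

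**Figure D5:**
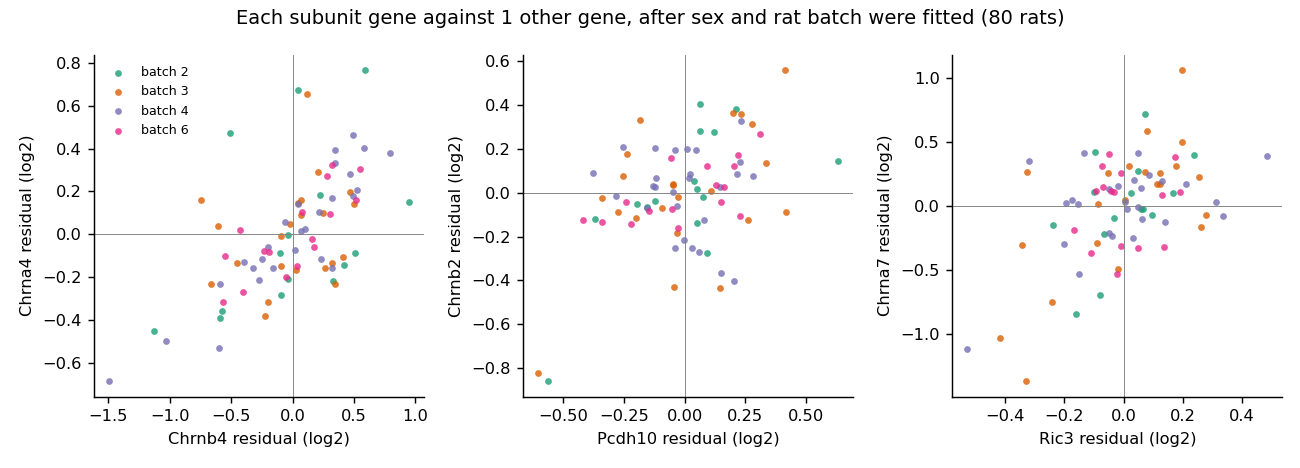
Each point is 1 of 80 rats, coloured by rat batch, and the axes give the log2 residuals after sex and rat batch were fitted. Chrna4 rises with Chrnb4 (r = 0.62) and Chrna7 with Ric3 (r = 0.51), while the relation of Chrnb2 with Pcdh10 (r = 0.42) has 2 rats at its lower left corner.

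All 3 genes fell as Stmn2 rose, a gene for a tubulin-binding protein of neurons. The slopes were -0.22 for Chrna4 (SE 0.0341, adjusted p = 9.98e-08), -0.14 for Chrnb2 (SE 0.0331, adjusted p = 0.000182) and -0.17 for Chrna7 (SE 0.0584, adjusted p = 0.0109), where 27.7% of all genes fell. Without batch 3 the calls of Chrnb2 (adjusted p = 0.114) and Chrna7 (adjusted p = 0.169) were lost, and that of Chrna7 was also lost with column run in the fit (adjusted p = 0.0791). With Chrnb4 and Stmn2 in the same fit, Chrna4 still rose with Chrnb4 by 0.14 (SE 0.0314, adjusted p = 0.00114), where 4.53% of genes rose, and still fell by 0.14 with Stmn2 (SE 0.0358, adjusted p = 0.00127), where 23.3% of genes fell. In that fit Chrnb2 moved with Stmn2 (slope -0.15, adjusted p = 0.000924) and not with Chrnb4 (slope -0.02, adjusted p = 0.858), and Chrna7 passed with neither.

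Markers of other cell types were combined into a score where at least 3 of them could be named. The microglial score of C1qa, C1qc and P2ry12 had a negative slope for Chrna4 (-0.15, SE 0.0352, adjusted p = 0.000444) and Chrna7 (-0.14, SE 0.0551, adjusted p = 0.0402), where 19.2% of genes fell. Chrnb2 had a slope of -0.07 that did not pass (adjusted p = 0.0735). The Chrna7 call was lost in 7 of 10 alternatives, 1 of which left out male rats 10 and 33 (slope -0.09, adjusted p = 0.207). Taken singly, C1qa was followed downward by all 3 genes (slopes of -0.19, -0.10 and -0.22, adjusted p = 4.27e-05 for Chrna4, 0.0244 for Chrnb2 and 0.0015 for Chrna7, 24.9% of genes falling). The Chrnb2 call was lost in 5 of 10 alternatives. C1qc was followed downward by Chrna4 (adjusted p = 0.000201) and Chrna7 (adjusted p = 0.00347), where 23.3% of genes fell. P2ry12 gave no call, where 0.12% of genes rose and 0.16% fell.

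The hippocampal score of C1ql2, Neurod6, Fibcd1 and Wfs1, which marks tissue that lies above the habenula, gave no call for any of the 3 genes. The adjusted p was 0.413 for Chrna4, 0.935 for Chrnb2 and 0.983 for Chrna7, and 0.131% of all genes rose with it. At an unadjusted p under 0.05, 1 of the 3 stood out, Chrna4 with a slope of 0.08 (p = 0.0114). Taken singly, Neurod6 went with Chrna4 (slope 0.10, SE 0.0313, adjusted p = 0.0147, 9.34% of genes rising), a call lost in 4 of 10 alternatives, among them leaving out batch 4 (adjusted p = 0.664). Neurod6 was low, with a median of 29 normalized counts and a mean log2 value of 4.9. The Chrna4 slopes on C1ql2 (-0.06, adjusted p = 0.46), Fibcd1 (0.09, adjusted p = 0.201) and Wfs1 (0.06, adjusted p = 0.492) did not pass in limma. Of 17 genes used singly, 7 gave no call for any subunit gene, with slopes between -0.07 and 0.09. No marker of thalamus, choroid plexus, oligodendrocytes or endothelium could be named, so neither the subunit genes' relation to those cells nor their part in the relations above was tested.

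The genes most like each subunit gene were ranked by Pearson's r of residuals over 80 rats among the 13359 genes that averaged 5 or more on the log2 scale, as a description. Pcsk2, a processing enzyme of neuropeptides, led the list of Chrna4 with an r of 0.84, and Gabbr2, a GABA-B receptor subunit, and Rasgrp1, an activator of Ras, followed at 0.81 and 0.79. For Chrnb2 the 5 highest ranged from 0.77 to 0.84, of which only Elfn2 (0.77), a synaptic adhesion gene, could be named. For Chrna7 the highest was Flrt1 (0.66), another adhesion gene, and the next 4 ranged from 0.64 to 0.66. For comparison, the middle 90% of genes had an r between -0.49 and 0.49 with Chrna4, between -0.39 and 0.49 with Chrnb2 and between -0.47 and 0.48 with Chrna7. With column run added to the fit the named genes kept an r of 0.84, 0.80 and 0.80 for Chrna4, 0.72 for Chrnb2 and 0.63 for Chrna7.

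The 3 genes varied more between rats than most genes of a similar level. After sex and rat batch, the residual SD of Chrna4 was 0.282 on the log2 scale, above 90.7% of the 2109 genes whose mean lay within 0.5 log2 units of its own and whose median SD was 0.168. Chrnb2 had 0.246, above 81.2% of 2508 such genes (median 0.175), and Chrna7 had 0.409, above 80.6% of 1719 (median 0.3). Removal of 20 expression components lowered the SD to 0.191 for Chrna4, 0.116 for Chrnb2 and 0.287 for Chrna7.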

How the data were processed

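The authors trimmed reads with cutadapt, estimated gene counts with RSEM against Rnor_6.0, scaled them by upper quartile using DESeq2, and set aside 6 of 87 libraries, not analysed here. Versions were not given in the sources used here. The deposited values are log2 of an adjusted estimated count plus a pseudocount of 1, and back-transformed values were whole numbers. Depth before scaling was recovered from steps among low values. Counts were rounded and scaled, so no count test was run.

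Sex, rat batch, their interaction and slopes were tested on 80 rats with limma 3.58.1 in R 4.3.3 (lmFit, eBayes with trend), with two-sided tests or, for batch and interactions, an F-test. P-values were adjusted by Benjamini-Hochberg over every gene tested, at a threshold of 0.05. The fits were tested on simulated data. A slope is per SD of the explanatory gene's or score's value over the rats. Relations between genes and differences between slopes used 100000 permutations within batch, two-sided, in Python 3.11.15 (numpy 2.4.6, pandas 2.3.3, scipy 1.17.1, matplotlib 3.10.9). Samples of a group were separate rats. Columns were matched to rats by title, and rats are numbered within a sex in accession order.

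The reference tables hold no Ensembl identifiers. Symbols came from identifier and name columns of the study's supplementary tables, which name 3275 of 17512 genes, and no value of those tables was used. Named genes are the 3 subunit genes, every named gene of a nicotinic, a partner and a cholinergic list, cell type markers, and the 5 genes most like each subunit gene. Members and lists were chosen with earlier results of these data known. Alternatives covered the pseudocount, a level filter, covariates, a rank-based transformation, the intensity trend and leaving out batches or rats.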

Additional observations from a re-analysis of the deposited data

How the results depend on the processing

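No paired analysis was possible because replicate numbers only name the rats, in accession order. The sex difference passed for none of the 3 genes under any alternative, and its sign changed to 0.33 for Chrna4 and 0.13 for Chrnb2 with 20 components, 7.8e-05 for Chrna4 with column run, 0.011 and 0.0105 without batch 3, 0.038 for Chrna4 without batch 4, 0.016 for Chrnb2 and 0.047 for Chrna7 without the 2 lowest rats of that gene, and 0.0058 for Chrna7 without libraries of over 1000 genes at 0. The Chrna7 batch range lost its call with 20 components (0.38, adjusted p = 0.825) and column run (0.66), Chrnb2 gained one with column run (0.38), and the tests of Chrna4 and Chrnb2 over all batches otherwise kept their side of the threshold. All 4 called pairs of batches for Chrna7 lost their calls under these 2 settings. With column run, Chrna7 in batch 3 minus batch 2 was 0.10, and with 20 components batch 6 minus batch 4 was -0.026. Genes called for sex numbered 7 with 20 components, against 23. For batch they numbered 20 with 20 components and 6180 with column run, against 11444, and for the interaction 1 with a pseudocount of 8, against 0.

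The negative Chrna7 slope on the microglial score did not pass with column run (-0.13), the number of genes at 0 (-0.12), ranks (-0.27 SD units), without batch 2 (-0.13), 3 (-0.13) or 4 (-0.12), or without its 2 lowest rats (-0.092), and Chrnb2 passed without batch 4 (-0.14). The Chrna7 slope on the hippocampal score was -0.0013 with the number of genes at 0 and -0.00065 without libraries of over 1000 genes at 0. Without the 2 rats lowest in that subunit gene after sex and batch, Chrnb2 on Ric3 was -0.0056 and Chrna7 on Neurod6 -0.011. Without batch 4 the slope of Chrna7 on Neurod6 was -0.0020. The Chrna4 slope on Chrnb4 and the Chrna7 slope on Ric3 passed under each alternative run (adjusted p from 2.15e-09 to 0.0315 and from 1.32e-05 to 0.00756). No slope was fitted with the expression components as covariates, with the level filter or without the intensity trend. Whether these relations would pass with the components was therefore not tested.

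With 20 components r was -0.18 for Chrna4 with Chrna7 and -0.42 for Chrnb2 with Chrna7, and with no covariates the latter was 0.23 and passed. Batch explained 11.6% of Chrna4 minus Chrnb2 without batch 3 and 16.3% within run 1, both past the threshold before adjustment. It explained 1.23% of Chrna4 minus Chrna7 within run 1 and 0.153% within run 3, and 10.04% (without batch 3), 11.5% (run 1) and 0.0676% (run 3) of Chrnb2 minus Chrna7, none past it. The tests within run 1 compared only batches 2 and 3, and those within run 3 only batches 4 and 6. Each of these pairs lies on the same side of the Chrna7 difference, so the tests within runs cannot bear on that difference. Residual SDs moved to 0.191, 0.116 and 0.287 with 20 components. The cause of these changes was not tested. With a median of 161 reads per library, counting error limits Chrna7 most.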
